A study of Mus musculus with 3 samples.

Results

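The phagocyte NADPH oxidase was followed through the cells of mouse glioblastoma tissue as 6 genes, *Cybb*, *Cyba*, *Ncf1*, *Ncf4*, *Rac1* and *Rac2*, taken by their symbols from the 31053 genes of the count tables. All 6 were found in each of the 3 droplet libraries. The tissue came from female wild-type C57BL/6 mice, aged 6 to 8 weeks when obtained, that carried BT0309 brain tumor-initiating cells in the striatum. BT0309 is a mouse glioblastoma line from animals mutant for *Nf1* and *Trp53*, so every group is tumor-bearing and no tumor-free brain is among the samples. From day 7 after implantation, mice received either saline vehicle (1 library, vehicle replicate 2) or niacin, vitamin B3, at 100 mg/kg daily by intraperitoneal injection (niacin replicates 1 and 2). Tissue around the injection site was collected at 4 weeks, cells passed a Percoll gradient that removes myelin and enriches leukocytes, and live cells were then sorted by a dye, so the cells are not an even sample of the tissue. The labels speak of 4 tissues per pool and of 5 control and 10 niacin-treated mice, so a library is a pool of animals and a spread between libraries is a spread between pools.

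The oxidase is a multi-subunit enzyme that passes electrons from NADPH across a membrane to oxygen and so makes superoxide. Its membrane core is a pair of proteins, the catalytic gp91-phox (*Cybb*) and its partner p22-phox (*Cyba*), each of which depends on the other for stability. Cytosolic subunits, among them the organizer p47-phox (*Ncf1*) and the phosphoinositide-binding p40-phox (*Ncf4*), move to that core when protein kinase C and other kinases are active, together with a Rac GTPase, *Rac1* in most tissues and *Rac2* in blood cells. In the brain the enzyme is known from microglia, the resident macrophages, and from monocytes and neutrophils that enter from blood. The study also compared microglia, monocytes and macrophages with and without a transcript of *Prkcd*, the gene of protein kinase C delta. It reported *Cybb* among the genes most raised in the positive mouse cells. By staining of human tumors it found more gp91-phox protein in macrophages with that kinase. Here cells are split by *Prkcd* within a class at equal depth, and then with classes joined. Vehicle and niacin libraries enter together, so this is not a repeat of the study's comparison.

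In the GENCODE annotation of GRCm38, *Cybb* (ENSMUSG00000015340) lies on the minus strand of chromosome X at 9435252 to 9487771, *Cyba* (ENSMUSG00000006519) on the minus strand of chromosome 8 at 122424776 to 122432930, and *Ncf1* (ENSMUSG00000015950) on the minus strand of chromosome 5 at 134220053 to 134229625. *Ncf4* (ENSMUSG00000071715) is on the plus strand of chromosome 15 at 78244801 to 78262580, *Rac1* (ENSMUSG00000001847) on the minus strand of chromosome 5 at 143503634 to 143528036, and *Rac2* (ENSMUSG00000033220) on the minus strand of chromosome 15 at 78559167 to 78572783. No other annotated gene overlaps any of the 6 on its own strand. *Gm20388* overlaps *Cyba*, *Gtf2ird2* overlaps *Ncf1*, and *Daglb* and *Gm42502* overlap *Rac1* on the opposite strand. The libraries were read at the 3′ end of the transcript, so the counts do not separate isoforms.

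Promoter sequence is shown for *Cybb* and *Ncf1*. Between microglia and mononuclear myeloid cells of blood, *Cybb* had the largest difference and *Ncf1* was the only member called higher in microglia. Each is the 250 bases before and the first 30 bases of the transcript start in the RefSeq table (GRCm38.p6), on the gene's own strand, chrX:9469295-9469574 for *Cybb* and chr5:134229596-134229875 for *Ncf1*. The RefSeq start of *Cybb* lies inside the longer GENCODE gene. Capitals mark any match to GAGGAA or its reverse complement, the core letters read by the myeloid factor PU.1.
Cybb: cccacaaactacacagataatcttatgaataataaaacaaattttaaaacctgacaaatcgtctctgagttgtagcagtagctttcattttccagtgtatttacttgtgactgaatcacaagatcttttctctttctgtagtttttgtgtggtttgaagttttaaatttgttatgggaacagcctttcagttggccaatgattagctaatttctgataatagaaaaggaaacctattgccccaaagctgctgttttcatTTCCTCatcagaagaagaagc
Ncf1: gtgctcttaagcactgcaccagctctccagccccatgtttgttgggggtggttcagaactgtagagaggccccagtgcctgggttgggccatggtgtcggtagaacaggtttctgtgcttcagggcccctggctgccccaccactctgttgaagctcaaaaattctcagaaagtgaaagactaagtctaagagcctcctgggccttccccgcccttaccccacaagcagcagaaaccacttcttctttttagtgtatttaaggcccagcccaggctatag
Searched on both strands over the full table window of 300 bases, GAGGAA occurred once in *Cybb* (as TTCCTC, its first base at +10 from the start) and not in *Ncf1* or *Cyba*. A window with GAGGAA was found for 28.3% of 32851 promoters. The shorter GGAA, which GAGGAA contains, occurred 4 times in *Cybb*, 2 times in *Cyba* and 1 time in *Ncf1*, against a median of 3 and at least 1 match in 96.0% of all promoters. The letters TTTC occurred 10 times in *Cybb*, 1 time in *Cyba* and 4 times in *Ncf1* (median 3, present in 89.2%). These are matches of letters in 1 window and not measured binding. The table holds no entry for *Ncf4*, *Rac1* or *Rac2*.

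Values are counts of unique molecular identifiers (UMIs), each a distinct captured RNA molecule, and a level is a gene's proportion of all UMIs summed over the cells of a class in a library, on the CPM scale, where 3 of the 2413915 UMIs of the vehicle microglia make 1.24 CPM. Libraries held 8301228 to 10359526 UMIs in 2145 to 2532 barcodes. Of 5571 distinct barcodes 924 (16.6%) were called in more than 1 library, with a median of 15.7 times more UMIs in the first library than in the next. Each was kept only in the library with most of its UMIs, which left 4343 cells with at least 200 genes and at most 20% mitochondrial UMIs. Cells were put in a class by UMIs of lineage markers, none of them an oxidase gene, and the class names stand for these markers only. The microglia class held 441, 862 and 1004 cells in the vehicle library and niacin replicates 1 and 2. Of its 10 leading genes 8 were on its marker list (*Tmem119*, *P2ry12*, *Olfml3* and others), which the class rule itself favors. The blood-derived mononuclear myeloid class held 303, 75 and 76 cells, mostly classical monocytes in the vehicle library (222 of 303) and mostly nonclassical monocytes under niacin (53 of 75 and 43 of 76). The nonclassical majority under niacin held with the rule for shared barcodes and with all of them left out, but not with all barcodes kept. That rule removed 106 and 101 mononuclear cells from niacin replicates 1 and 2, and 18 from the vehicle library. With all barcodes kept, niacin replicate 1 had 88 classical and 60 nonclassical monocytes, and niacin replicate 2 had 95 and 58. With every shared barcode left out they had 4 and 31, and 10 and 33. Neutrophils, led by *Ngp*, *S100a9* and *S100a8*, numbered 75, 53 and 44. Choroid plexus epithelium, and for *Cybb* and *Ncf1* also T cells, are set beside the myeloid classes as cells that are not phagocytes. T cells hold *Cyba* and *Rac2* and give no background for them.

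*Cybb*, the catalytic subunit, was the member that separated microglia from the cells of blood most widely. In mononuclear myeloid cells it stood at 1469 CPM in the vehicle library, 1885 CPM in niacin replicate 1 and 1681 CPM in niacin replicate 2 (1678 ± 208, mean ± SD, n = 3). Microglia had 135, 18.2 and 36.4 CPM in the same order (63.1 ± 62.7, n = 3), from 325, 76 and 169 UMIs. Every mononuclear value lay far above every microglia value, and within microglia the vehicle library stood above both niacin libraries. Neutrophils held 925, 1141 and 1599 CPM (1221 ± 344, n = 3), a range that overlapped that of the mononuclear cells. The T cells of the vehicle library had 66.3 CPM of *Cybb* (53 UMIs), while those of niacin replicates 1 and 2 had 1.68 CPM (1 UMI) and 0. In the vehicle library natural killer cells had 11.9 CPM (3 UMIs, exact Poisson interval 2.46 to 34.8) and choroid plexus cells no *Cybb* UMI (up to 18.1 CPM). The T cell value thus did not hold for these classes. B cells, which are known to carry the oxidase, had 299 CPM in the vehicle library and 160 and 143 CPM in niacin replicates 1 and 2. *Cybb* in T cells was highest in the library where *Cybb* in microglia was highest, and a part of other cells' RNA in the microglial value was not tested. With every barcode shared between libraries left out, *Cybb* was at 38.0 ± 30.4 CPM in microglia, 2342 ± 478 CPM in mononuclear cells and 790 ± 276 CPM in neutrophils (n = 3 each).

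**Figure D1:**
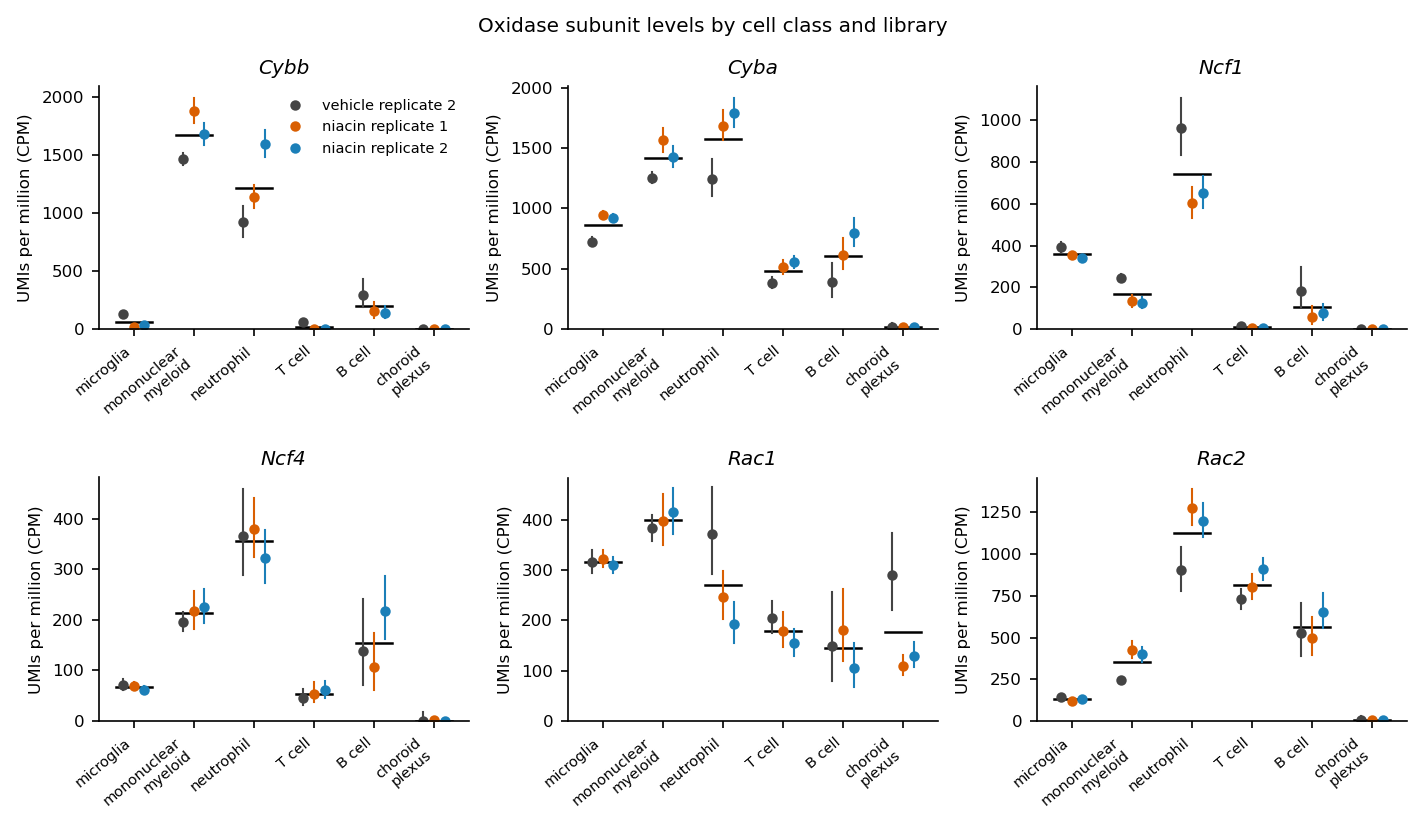
Levels of the 6 oxidase subunits in 6 cell classes, in CPM (linear axis from 0), 1 panel per gene. Points are libraries with exact 95% Poisson intervals, horizontal lines are the mean of the libraries. *Cybb* is near 0 in microglia and at 925 CPM or more in mononuclear cells and neutrophils, whereas *Ncf1* in microglia (339 to 393 CPM) lies above all 3 mononuclear values.

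At equal depth the same order held for the share of cells with *Cybb*. Each cell was thinned to 2000 UMIs, which left out 697 of 2307 microglia. A *Cybb* UMI was then found in 4.22% of microglia (95% exact binomial interval 3.29% to 5.32%), against 86.2% of mononuclear cells (82.1% to 89.7%). By library the microglial share was 11.2%, 2.26% and 3.18%, and the T cell share was 5.66%, 0 of 77 cells and 0 of 112 cells. Over all cells, microglia and T cells had a median of 4503 and 5678.5 UMIs. Without thinning, 6.63% of microglia and 91.6% of mononuclear cells had a *Cybb* UMI. Neutrophils had shares of 16.7% (vehicle) and 53.8% and 66.7% (niacin), and the vehicle neutrophils were also the shallowest (a median of 1949 UMIs, against 5375 and 8755). These intervals, like all given for single libraries, cover counting error only.

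The few microglia with *Cybb* did not carry it evenly. Any *Cybb* UMI was present in 70 of 441 microglia of the vehicle library, and the 30 with at least 3 held 85.8% of all *Cybb* UMIs of the class. Under niacin, 9 cells (replicate 1) and 18 cells (replicate 2) with at least 3 UMIs held 60.5% and 76.3%. A single microglia-class cell held up to 41 *Cybb* UMIs. These counts were not thinned, and doublets were kept. In mononuclear cells, most of which had at least 3 *Cybb* UMIs, such cells held 98.1%, 99.7% and 99.6%. Among microglia without any UMI of a mononuclear or neutrophil marker, *Cybb* was at 103 CPM (exact Poisson interval 56.2 to 172, 76 cells), 14.6 CPM (6.66 to 27.6, 198 cells) and 42.6 CPM (28.5 to 61.2, 257 cells). Those cells were shallow, with a median of 1251.5, 2248 and 1638 UMIs against 6160, 5554.5 and 5629 UMIs in the other microglia, so the lack of a marker UMI does not show that they are free of other RNA. The summed mononuclear marker level in microglia was 163 CPM in the vehicle library, from 23 of 25 markers, and 62.2 and 65.6 CPM in the niacin libraries, from 20 of 25 each. In mononuclear cells, which were chosen by these markers, it was 6271 to 8233 CPM. The list is not specific to them, since it stood at 5082 to 11394 CPM in neutrophils and at 605, 684 and 746 CPM in T cells, lowest in the vehicle library. *Csf3r*, which microglia are known to express, made up 77.3% to 87.9% of the neutrophil-list UMIs in microglia (313 to 398 CPM).

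*Cyba*, the partner that anchors the cytosolic subunits, was broadly present. Its level was 725, 949 and 925 CPM in microglia (866 ± 123), 1256, 1564 and 1428 CPM in mononuclear cells (1416 ± 155) and 1248, 1686 and 1791 CPM in neutrophils (1575 ± 288, n = 3 each). The microglia values lay below the other myeloid values in every library, and mononuclear cells and neutrophils overlapped. T cells had 384 to 556 CPM and B cells 391 to 798 CPM, but choroid plexus only 18.2 to 19.6 CPM. After thinning, 78.6% of microglia had a *Cyba* UMI, against 86.8% of mononuclear cells, 92.3% of neutrophils, 55.3% of T cells and 5.38% of choroid plexus cells (a median of 6248.5 UMIs before thinning). Because *Cyba* varied less than *Cybb*, the balance between the transcripts of the membrane core differed by class, a difference that was not tested. *Cybb* made up 15.7%, 1.88% and 3.78% of the *Cybb* and *Cyba* UMIs in microglia. In mononuclear cells it made up 53.9%, 54.6% and 54.1%, with little spread between libraries (54.2% ± 0.389, n = 3), and in neutrophils 42.6%, 40.4% and 47.2%.

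Since *Cybb* was seldom found in microglia, both core transcripts were also seldom found in the same microglia. At 2000 UMIs per cell, *Cybb* and *Cyba* were detected together in 7.37%, 2.26% and 2.73% of microglia (3.35% over all, exact interval 2.53% to 4.35%) and in 71.4%, 87.5% and 85.1% of mononuclear cells (77.0% over all). Nonclassical monocytes reached 95.9% and classical monocytes 72.2%. T cells gave 0.678%. Of the 6 members, microglia had a mean of 2.07 with a UMI, mononuclear cells 3.14 and neutrophils 4.03, against 1.79 in T cells and 0.288 in choroid plexus. At least 4 of the 6 were detected in 6.83% of microglia, 38.8% of mononuclear cells and 72.6% of neutrophils.

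**Figure D2:**
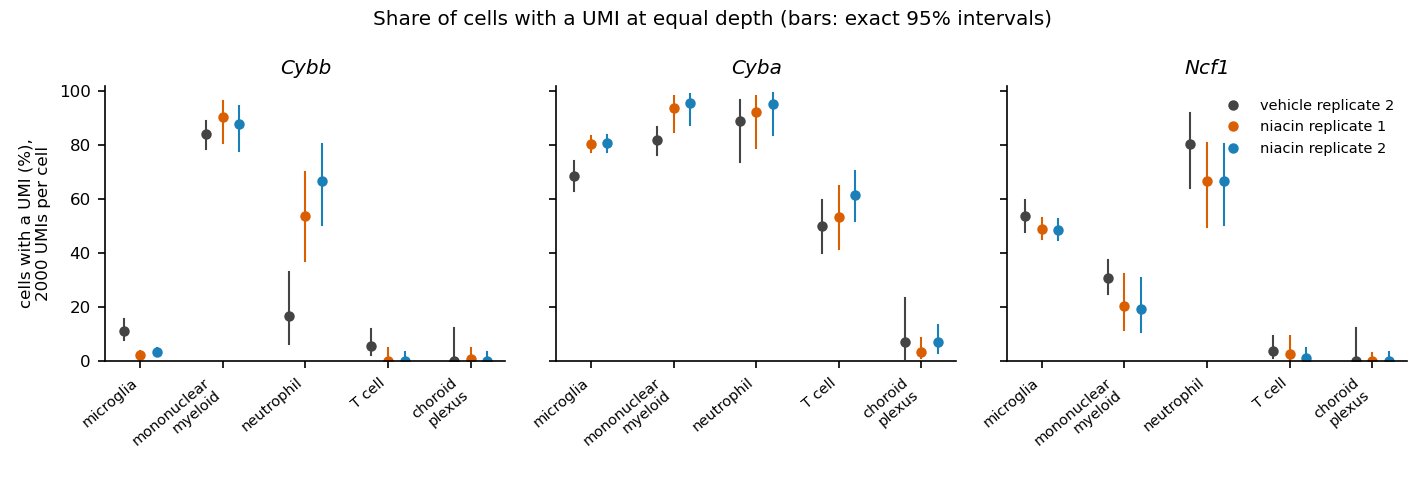
Share of cells (%) with a UMI of *Cybb*, *Cyba* or *Ncf1* after each cell was thinned to 2000 UMIs, by class and library, with exact 95% binomial intervals. *Cybb* is found in 11.2% of microglia at most and in 84.3% of mononuclear cells at least, while *Ncf1* is found in more microglia than mononuclear cells in all 3 libraries.

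*Ncf1*, the organizer that links the cytosolic subunits to *Cyba*, ran the other way. Microglia had 393, 353 and 339 CPM (362 ± 28.1) and mononuclear cells 245, 134 and 127 CPM (169 ± 65.9, n = 3 each). All 3 microglia values lay above all 3 mononuclear values. Neutrophils had the highest level, 963, 605 and 652 CPM (740 ± 195). T cells had 5.04 to 17.5 CPM and choroid plexus at most 1.90 CPM, so background for *Ncf1* was low. After thinning, an *Ncf1* UMI was found in 49.7% of microglia, 26.7% of mononuclear cells, 70.9% of neutrophils, 2.37% of T cells and 0 of 260 choroid plexus cells (exact interval up to 1.41%).

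*Ncf4*, which binds phosphoinositides on the phagosome, was lowest in microglia among the myeloid classes. Its level was 70.4, 68.2 and 61.3 CPM in microglia, close to the 45.0, 53.8 and 60.6 CPM of T cells, whose range it just exceeded. Mononuclear cells had 196, 217 and 225 CPM (213 ± 15.1), and neutrophils 366, 379 and 322 CPM (356 ± 29.8, n = 3 each). The 3 myeloid ranges did not overlap. B cells, at 138, 106 and 217 CPM, overlapped the mononuclear cells.

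The Rac GTPases divided the classes in another way. *Rac1*, the widely expressed form, was at 316, 322 and 310 CPM in microglia, 383, 397 and 414 CPM in mononuclear cells and 371, 246 and 192 CPM in neutrophils. The mononuclear range lay above that of microglia, and neutrophils spread across the microglial range. *Rac2*, the form of blood cells, was at 144, 119 and 134 CPM in microglia (132 ± 12.4), 244, 425 and 399 CPM in mononuclear cells (356 ± 97.7) and 906, 1280 and 1201 CPM in neutrophils (1129 ± 197, n = 3 each). Those 3 *Rac2* ranges did not overlap. T cells had 729, 803 and 909 CPM of *Rac2*, a range that overlapped that of neutrophils.

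As a share of *Rac1* and *Rac2* UMIs together, *Rac2* took 31.2%, 27.0% and 30.1% in microglia (29.4% ± 2.21) and 39.0%, 51.7% and 49.0% in mononuclear cells (46.6% ± 6.72, n = 3 each). Neutrophils used *Rac2* for 70.9%, 83.9% and 86.2%, and T cells for 78.0%, 81.8% and 85.5%. B cells had 79.3% ± 6.48 and choroid plexus 2.88% ± 1.06 (n = 3 each). Nonclassical monocytes had 52.1%, 51.5% and 50.8%, while classical monocytes had 39.6%, 52.3% and 47.7%. The order ran from epithelium over microglia and monocytes to neutrophils and lymphocytes.

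**Figure D3:**
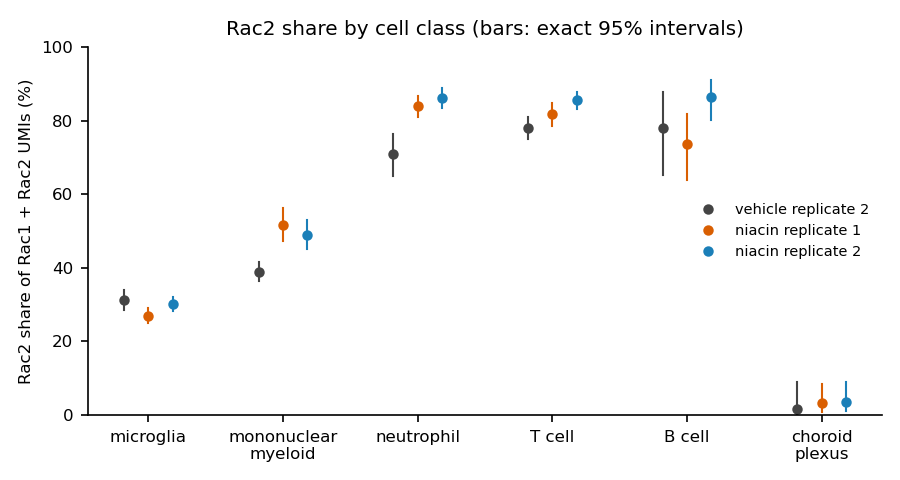
*Rac2* as a share (%) of the *Rac1* and *Rac2* UMIs of a class, by library, with exact 95% binomial intervals (counting error only). Choroid plexus lies at 1.67% to 3.60%, microglia at 27.0% to 31.2%, mononuclear cells at 39.0% to 51.7% and neutrophils at 70.9% to 86.2%.

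Classes were compared by sums of UMIs per library with edgeR's quasi-likelihood test, with the library as a block and Benjamini-Hochberg adjusted p-values over all genes tested. The labels do not say that the libraries are separate experiments, so these p-values measure how far class differences vary between these 3 pools. The pools are 1 vehicle and 2 niacin libraries, so any difference by treatment is part of that spread. Between microglia and mononuclear cells 1 of 6 members was higher in microglia, where 23.6% of all 8431 genes were called higher, and 4 of 6 were lower, where 21.5% were called lower. *Cybb* was 34.3-fold lower in microglia (log2 fold change -5.10 ± 0.74 SE, adjusted p = 0.000426), *Ncf4* 3.52-fold (-1.82 ± 0.24, adjusted p = 0.000234), *Rac2* 2.83-fold (-1.50 ± 0.30, adjusted p = 0.00271) and *Cyba* 1.82-fold (-0.87 ± 0.27, adjusted p = 0.0249). *Ncf1* was 1.98-fold higher in microglia (0.98 ± 0.27, adjusted p = 0.0132). For *Rac1* the value was -0.48 ± 0.21 with an adjusted p of 0.0845, and it passed in 3 of 21 alternatives with all 3 libraries (DESeq2, only these classes in the fit, and neutrophils joined), over a range of -0.62 to -0.03. The median of the 6 members was -1.18, against 0.09 over all genes tested.

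*Cybb*, *Ncf4* and *Rac2* kept their call in each fit that left out a library, with *Cybb* from -6.24 to -4.39. The calls of *Cyba* and *Ncf1* were lost without niacin replicate 1 (adjusted p = 0.155 and 0.156) and without niacin replicate 2 (0.134 and 0.235). Without the vehicle library all 6 members passed the test, *Rac1* at -0.52 (adjusted p = 0.00834) and *Ncf1* at 1.25. Without any barcode shared between libraries the 5 calls held, with *Cybb* at -6.02 and *Ncf1* at 1.28. The *Ncf1* difference also turned on which cells stood for the blood. Against nonclassical monocytes alone it was 1.68 (adjusted p = 4.65e-05) and against classical monocytes alone 0.74 (adjusted p = 0.0521). With neutrophils added to the mononuclear class it was -0.31 (adjusted p = 0.231).

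Against neutrophils, *Cybb*, *Rac2*, *Ncf4*, *Ncf1* and *Cyba* were lower in microglia by level and by the test. With *Rac1* the test called 6 of 6 members lower, against 21.3% of all 8431 genes, and none higher, against 30.5%. *Cybb* was 44.1-fold lower (-5.46 ± 0.76, adjusted p = 0.000283), *Rac2* 15.2-fold (-3.92 ± 0.33, adjusted p = 1.24e-05), *Ncf4* 9.68-fold (-3.27 ± 0.25, adjusted p = 8.14e-06), *Ncf1* 3.64-fold (-1.87 ± 0.27, adjusted p = 0.000341) and *Cyba* 3.32-fold (-1.73 ± 0.28, adjusted p = 0.000659). *Cybb* was at -6.86 without the vehicle library, -4.75 without niacin replicate 1 and -4.86 without niacin replicate 2. The direction of *Rac1* rested on the scaling. It was at -0.57 ± 0.21 (adjusted p = 0.0461), but its mean level was higher in microglia (316 ± 6.25 CPM) than in neutrophils (270 ± 91.6 CPM, n = 3 each), and it was at 0.29 when only library size scaled the sums. It lost its call without niacin replicate 1 (adjusted p = 0.340) or niacin replicate 2 (0.178), and without shared barcodes (0.132). Of the alternatives with all 3 libraries, it kept its call in 9 of 16. The TMM scaling used here corrects for a few very abundant RNAs, and in neutrophils the marker list alone took 54925 to 108718 CPM. Scaling by library size alone moved the median of all genes by 0.89 in this comparison, 0.73 in the next, 0.16 between microglia and mononuclear cells and 0.14 between the monocyte types. The share of higher genes among those called went from 58.8% to 83.3% here and from 56.3% to 85.5% in the next comparison.

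Between the blood-derived classes, 4 of 6 members were lower in mononuclear cells than in neutrophils, against 13.6% of all genes, and none was higher, against 17.6%. *Ncf1* differed most, 7.20-fold lower in mononuclear cells (-2.85 ± 0.28, adjusted p = 0.000129), followed by *Rac2* at 5.36-fold (-2.42 ± 0.31, adjusted p = 0.000437), *Ncf4* at 2.75-fold (-1.46 ± 0.24, adjusted p = 0.00167) and *Cyba* at 1.82-fold (-0.86 ± 0.27, adjusted p = 0.0365). The value of *Cyba* was unsteady. It kept its call in 9 of 15 alternatives with all 3 libraries, and was -0.13 (adjusted p = 0.702) with library size only, -0.26 (0.493) without shared barcodes and -0.36 (0.347) in thinned cells. It also lost its call without niacin replicate 1 (adjusted p = 0.298) or 2 (0.410), and *Ncf4* without niacin replicate 2 (0.0543). *Cybb*, at -0.36 ± 0.61 (adjusted p = 0.682), did not pass the test, and its sign was the other with library size only (0.47) and without shared barcodes (1.07, adjusted p = 0.144). Without the vehicle library it was -0.62 (adjusted p = 0.0257). *Rac1* was at -0.09 ± 0.21 (adjusted p = 0.778). The 3 comparisons share their sums, so they are not separate evidence.

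**Figure D4:**
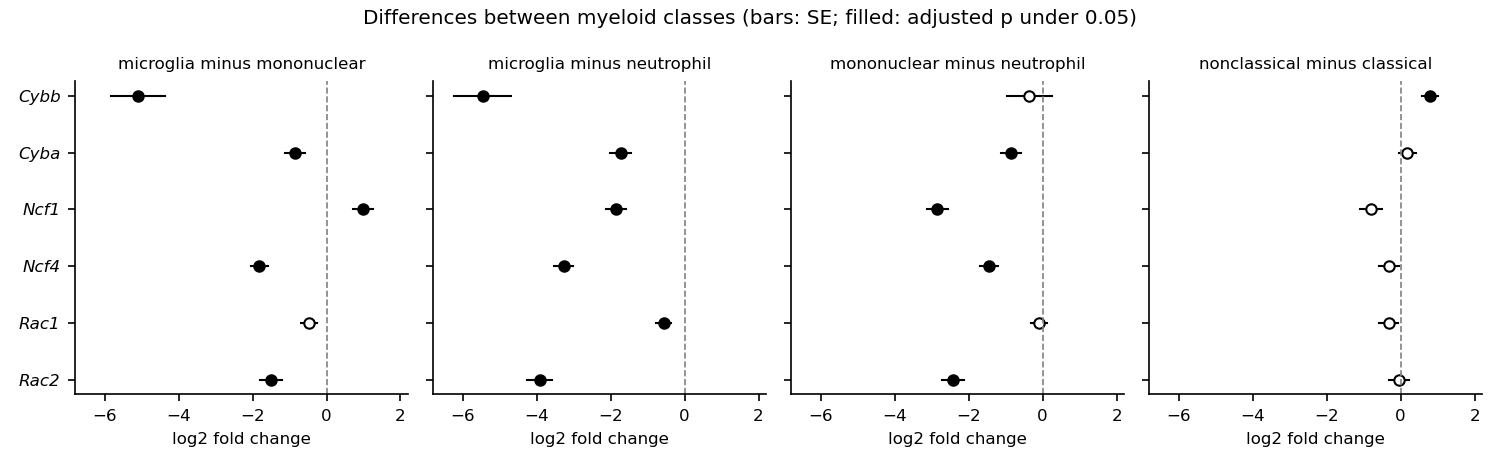
Log2 fold change of each member in 4 comparisons of myeloid classes, with standard errors from edgeR's quasi-likelihood test. Filled points have an adjusted p under 0.05. *Ncf1* is the only filled point right of 0 in the comparison of microglia with mononuclear cells (0.98), and all 6 members are left of 0 against neutrophils, although *Rac1* is at 0.29 with library size only (not drawn).

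Within the mononuclear class, *Cybb* was the only member called between monocyte types, and its call depended on the processing. Classical monocytes, the *Ly6c2* and *Ccr2* cells that enter inflamed tissue, had 1529, 1294 and 1118 CPM, and nonclassical monocytes, the *Ear2* and *Treml4* cells that patrol vessels, had 2669, 2362 and 2501 CPM. The ranges did not overlap. *Cybb* was 1.74-fold higher in nonclassical monocytes (0.80 ± 0.22, adjusted p = 0.0212), so 1 of 6 members was higher, against 5.86% of 6790 genes, and none was lower, against 7.05%. The call held without the vehicle library (0.86, adjusted p = 0.00195) but was lost without niacin replicate 1 (adjusted p = 0.172) or niacin replicate 2 (0.430). It held in 5 of 9 alternatives with all 3 libraries. The value was 0.38 (adjusted p = 0.514) with every shared barcode removed, 0.72 (0.119) with all barcodes kept, 0.77 (0.0516) in thinned cells and 0.79 (0.106) without the library block. By library size alone, 56.4% of the genes called were higher, against 45.4%.

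*Ncf1* pointed the other way between the monocyte types, with 272, 141 and 157 CPM in classical and 124, 125 and 94.8 CPM in nonclassical monocytes (-0.81 ± 0.30, adjusted p = 0.0852). These ranges did not overlap, and *Ncf1* passed in 1 of 9 alternatives with all 3 libraries. *Cyba* (0.18 ± 0.23), *Ncf4* (-0.31 ± 0.28), *Rac1* (-0.33 ± 0.26) and *Rac2* (-0.05 ± 0.26) did not pass the test either.

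The question of *Prkcd* was put to thinned cells, since a deeper cell is more likely to show both genes. Cells of 2000 UMIs were divided by whether they had a *Prkcd* UMI. *Prkcd*-negative microglia had 71.4, 9.46 and 28.6 CPM of *Cybb* (vehicle, niacin replicates 1 and 2) and *Prkcd*-positive microglia 114, 18.6 and 27.1 CPM, each from 8 to 38 UMIs. It was higher in 2 of 3 libraries (0.47 ± 0.30, adjusted p = 0.982), and the sign was the other at 4000 UMIs (-0.49), without thinning (-0.084) and with all barcodes kept (-0.65). The last setting thinned the same 285 vehicle microglia by another random draw. That draw gave 138 positive and 147 negative cells, against 166 and 119. Each setting rests on 1 draw, and how far the draw moves the value was not tested. In mononuclear cells the pairs were 1230 and 1640, 1900 and 2418, and 2018 and 2192 CPM, higher in 3 of 3 libraries (0.30 ± 0.19, adjusted p = 0.632). None of the 6 members passed in either class, and few genes did. In microglia 4 of 6666 genes were called (0.06%), with 320 at an unadjusted p under 0.05 and none called by DESeq2. In mononuclear cells edgeR called none of 1564 genes (0%), with 134 at an unadjusted p under 0.05 and none called by DESeq2.

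When both classes were joined before the split, as an analysis added after these values were seen, *Cybb* was 2.68-fold higher in *Prkcd*-positive cells (1.42 ± 0.20, adjusted p = 0.00196), at 848 against 473 CPM, 423 against 74.2 CPM and 330 against 153 CPM. The other members ran from -0.08 (*Ncf1*) to 0.39 (*Ncf4*) and were not called. The joined groups differed in makeup. Of the *Prkcd*-positive cells 48.1% (vehicle), 16.8% (niacin replicate 1) and 14.0% (niacin replicate 2) were mononuclear, against 34.6%, 3.42% and 6.25% of the *Prkcd*-negative cells. *Prkcd* itself was 2.41-fold lower in microglia than in mononuclear cells (-1.27 ± 0.21, adjusted p = 0.00088).

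Niacin was set beside vehicle by library, without a test, because 1 vehicle library shows no spread between vehicle pools. Differences are log2 ratios of CPM with exact 95% counting intervals. *Cybb* in microglia was lower in both niacin libraries, by -2.89 (-3.27 to -2.52) in replicate 1 and -1.89 (-2.17 to -1.62) in replicate 2. Beside it, *Cybb* in T cells went from 66.3 CPM to 1.68 and 0 CPM, and in B cells from 299 to 160 and 143 CPM. In cells that met no class it went from 525 to 307 and 378 CPM. Natural killer cells and choroid plexus of the vehicle library were at 11.9 and 0 CPM. The mononuclear marker sum in microglia went from 163 to 62.2 and 65.6 CPM. The part of any of these in the difference was not tested. Treatment and library cannot be told apart.

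The other members in microglia lay nearer to 0. *Cyba* was higher by 0.39 and 0.35, *Ncf1* lower by -0.16 and -0.21, and the intervals of these 4 values left out 0. *Rac2* was at -0.27 and -0.11, with 0 inside the second interval, and *Ncf4* and *Rac1* lay within 0.20 of 0. In neutrophils *Cybb* (0.30 and 0.79), *Cyba* (0.43 and 0.52) and *Rac2* (0.50 and 0.41) were higher and *Ncf1* (-0.67 and -0.56) and *Rac1* (-0.59 and -0.95) lower in both niacin libraries. Without shared barcodes no member was lower in both niacin libraries, while 3 were still higher. The vehicle neutrophils were also the shallowest.

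In mononuclear cells *Rac2* (0.80 and 0.71), *Cybb* (0.36 and 0.20) and *Cyba* (0.32 and 0.19) were higher and *Ncf1* (-0.87 and -0.94) lower. However, this class held mostly another monocyte type under niacin. Nonclassical monocytes also outnumbered classical ones there with every shared barcode left out (31 against 4 and 33 against 10). With all barcodes kept, classical monocytes outnumbered nonclassical ones in every library. Within classical monocytes *Rac2* was higher (0.86 and 0.72), *Ncf1* lower (-0.95 and -0.79) and *Cybb* lower (-0.24 and -0.45), the reverse of its sign over the whole class. Within nonclassical monocytes no member had both intervals on 1 side of 0, and *Cybb* was at -0.18 and -0.09. The classical monocytes under niacin were 18 and 27 cells. With all barcodes kept they were 88 and 95 cells. Without shared barcodes niacin replicate 1 gave no value for them, and *Cybb* in niacin replicate 2 was at 0.23 (-0.08 to 0.52).

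**Figure D5:**
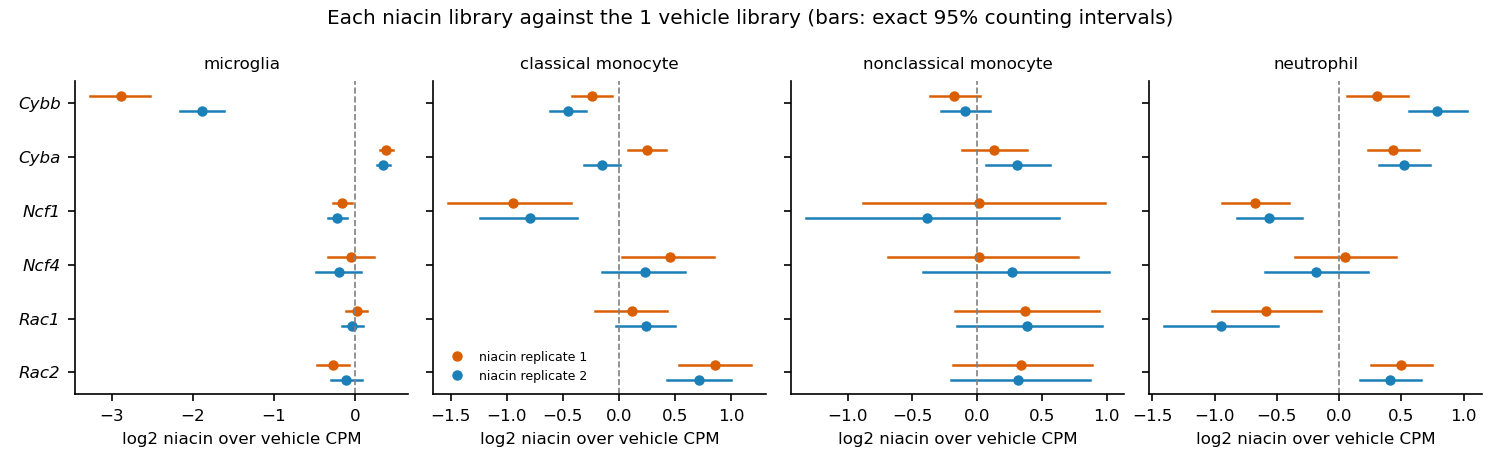
Log2 ratio of CPM in each niacin library over the vehicle library for the 6 members in 4 classes, with exact 95% counting intervals. The axes differ between panels. *Cybb* in microglia (-2.89 and -1.89) lies farther from 0 than any other member in these panels.

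Across 24 sums of a class and a library with at least 10 cells, each member was set against the 3023 genes with a mean of at least 50 CPM, by Pearson's r of log2(CPM + 10). These sums share libraries and classes, so r is a description. *Cybb* ran most like *Plaur* (0.953), *Plbd1* (0.931) and *Cyp4f18* (0.929), and *Cyba* most like *Tmsb4x* (0.983), *Hcls1* (0.966) and *Gpsm3* (0.956). Among the genes nearest *Ncf1* were *Spi1*, the PU.1 gene (0.934), and *Ogfrl1* (0.929), and those nearest *Ncf4* were *Ptpn6* (0.939), *Hcls1* (0.933) and the member *Cyba* (0.920). *Rac1* was nearest *Cdc42* (0.941), *Gnb2* (0.940) and *Cers2* (0.938), and *Rac2* nearest *Arhgdib* (0.973), *Arhgap15* (0.963) and *Stk17b* (0.952). Among pairs of members *Cyba* and *Ncf4* were most alike (0.920) and *Cybb* and *Rac2* least (0.470), with *Cybb* and *Cyba* at 0.652.

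Genes around the oxidase were counted from lists. Of the other oxidase genes, *BC017643*, the chaperone of gp91-phox, did not pass between microglia and mononuclear cells (0.07 ± 0.22, adjusted p = 0.833) or between monocyte types. It was higher than in neutrophils in microglia (1.13, adjusted p = 0.00809) and in mononuclear cells (1.07, adjusted p = 0.0209). Of 18 regulators of the oxidase and of Rac, 4 were higher and 6 lower in microglia than in mononuclear cells, where 23.6% of all genes were higher and 21.5% lower. *Prkca*, a protein kinase C (4.52), *Hvcn1*, the proton channel that balances the oxidase's charge (2.39), *Pik3cg* (1.12) and *Prex1*, an exchange factor for Rac (0.71), were higher. *Vav3* (-6.37) and *Tiam1* (-2.06), also exchange factors, *Arhgdib* (-1.76), *Rap1a* (-1.35), *Prkcd* (-1.27) and *Arhgdia* (-0.78) were lower.

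Of the same 18 regulators, 1 was higher and 5 lower in microglia against neutrophils, beside 30.5% and 21.3% of all genes, and 3 were higher and 5 lower in mononuclear cells against neutrophils, beside 17.6% and 13.6%. Of 17 tested between monocyte types, 3 were higher and 1 lower in nonclassical monocytes, beside 5.86% and 7.05% (*Prkcb* 2.23, *Rap1a* 0.97, *Dock2* 0.85 and *Tiam1* -1.29). Of 20 genes that handle superoxide and peroxide, 16 were tested and 11 were lower in microglia than in mononuclear cells, beside 21.5% of all genes. Among them were the thioredoxin *Txn1* (-2.85), the peroxidases *Gpx1* (-2.44), *Prdx5* (-2.39) and *Prdx6* (-2.34), heme oxygenase *Hmox1* (-2.24) and the superoxide dismutase *Sod2* (-2.02). Of the list only *Gclc*, of glutathione synthesis, was higher (2.09), beside 23.6% of all genes. The list counted 5 of 16 higher and 7 lower in microglia against neutrophils (all genes 30.5% and 21.3%), 7 higher and 5 lower in mononuclear cells against neutrophils (17.6% and 13.6%), and none higher and 3 lower of 17 in nonclassical monocytes (5.86% and 7.05%). In the split by *Prkcd* no gene of these lists was called in either class.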

How the data were processed

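The deposited values are raw UMI counts of each gene in each barcode. The authors made them from Chromium 3′ libraries with Cell Ranger 3.1, STAR and the mm10 genome, and pooled tissues before library preparation. Total UMIs per library, barcodes and depth are given with the results.

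The 6 members and all gene and marker lists were chosen with earlier results of these data known. Barcodes under 200 genes or over 20% mitochondrial UMIs were dropped. A barcode seen in more than 1 library stayed only where it had most UMIs. A class needed at least 2 of its markers and 3 marker UMIs, with no more than 50% as many UMIs of another class. Of the cells, 361 of 4343 met no class and were left out of the comparisons. Doublets were kept, and removal of the 5% of cells with the highest Scrublet scores (scanpy 1.11.5) was an alternative.

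Counts were summed per library and class (at least 10 cells) and tested with edgeR 4.0.16 in R 4.3.3 (quasi-likelihood test with a library block, TMM scaling, low genes removed by filterByExpr, and p-values adjusted by Benjamini-Hochberg, threshold 0.05). The 3 myeloid classes entered 1 fit. Each standard error is the log2 fold change over the root of F. The script was tested on simulated data. DESeq2 1.42.0 and clusters from Seurat 5.3.0 were alternatives. The library takes the place of the replicate number as the block, since all classes of a library come from the same pool. Thinning drew 2000 UMIs per cell (seed 1). Intervals used scipy 1.17.1 and cover counting error only. Named genes are the members, list genes past the threshold or named by the study, and for each member the 3 genes most like it. Coordinates came from GENCODE and promoters from RefSeq, both on GRCm38. Some genes that these rules name, and 1 small cell group, are not reported here.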

Additional observations from a re-analysis of the deposited data

Results flagged for a closer look

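*Cybb* differed in direction between classes when niacin libraries were set beside the vehicle library. The mean log2 ratio was -2.39 in microglia, where both niacin libraries were lower, and 0.28 in mononuclear myeloid cells, where both were higher, a difference of -2.67. Against neutrophils (0.55, both higher) the difference was -2.93. Neither difference was tested, since there is 1 vehicle library. *Cybb* in T cells was also highest in the vehicle library (66.3 CPM, against 1.68 and 0 CPM). So it was in B cells (299, against 160 and 143 CPM) and in cells that met no class (525, against 307 and 378 CPM). Natural killer cells and choroid plexus of that library were at 11.9 and 0 CPM. The mononuclear class held mostly classical monocytes in the vehicle library and mostly nonclassical monocytes under niacin. With all barcodes kept, classical monocytes outnumbered nonclassical ones under niacin (88 against 60 and 95 against 58). With every shared barcode left out, nonclassical monocytes outnumbered classical ones (31 against 4 and 33 against 10). Within classical monocytes the ratios were -0.24 and -0.45. Without shared barcodes niacin replicate 1 gave no such ratio, and that of niacin replicate 2 had the other sign, with 0 inside its interval. The part of these values in the difference was not tested.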

How the results depend on the processing

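Between microglia and mononuclear cells, in the 21 alternatives that kept all 3 libraries, *Cybb* (-6.02 to -4.82), *Ncf4* and *Rac2* were called each time. *Cyba* lost its call with library size only (-0.71, adjusted p = 0.0558), without the library block (0.0784) and against classical monocytes alone (0.0525), and the members higher went from 1 to 0 against classical monocytes alone and with neutrophils joined, where *Ncf1* was -0.31. The fits against 1 monocyte type were chosen after the data were seen. Genes called numbered 3801, and 2150 without shared barcodes, 1500 in thinned cells and 2234 to 4604 with 1 library left out (members higher 0 to 1).

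Removing shared barcodes or thinning left 5170 and 3033 genes to test instead of 8431 in the comparisons of 3 classes (3543 and 2324 instead of 6790 between monocyte types), so counts called there are of fewer genes. Against neutrophils, genes called in microglia went from 4370 to 2669 without shared barcodes, 1662 in thinned cells and 2570 to 4697 with 1 library left out, and *Rac1* was 0.29 with library size only. For mononuclear cells against neutrophils they went from 2631 to 1454, 913 and 1026 to 3121 in the same settings, with 2 to 5 members lower when 1 library was left out. There *Cybb* was 1.07 without shared barcodes, 1.02 in thinned cells, 0.47 with library size only and -0.62 to 0.011 with 1 library left out, and *Rac1* was 0.61 with library size only, 0.025 without a filter on low counts and -0.18 to 0.042 with 1 library left out.

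Between monocyte types, where the alternatives were chosen after the data were seen, the 1 member higher was 0 with all barcodes kept, without shared barcodes, in thinned cells and without the library block, and 0 to 1 with 1 library left out. With all barcodes kept 1 member was lower. Genes called went from 877 to 327 without shared barcodes, 248 in thinned cells, 329 without the library block, 369 by DESeq2 and 551 to 865 with 1 library left out. *Rac2* was 0.0099 with all barcodes kept, 0.53 without shared barcodes, 0.080 in thinned cells, 0.088 with library size only and -0.20 to 0.064 with 1 library left out. *Rac1* was 0.028 without shared barcodes and 0.011 in thinned cells, and *Cyba* -0.019 to 0.31 with 1 library left out.

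In microglia divided by *Prkcd* the 4 genes called became 77 without thinning, 15 without shared barcodes, 85 with mononuclear cells joined (1 member higher, an alternative added after the data were seen), 0 without the library block or by DESeq2, and 0 to 9 with 1 library left out. *Cybb* was -0.49 at 4000 UMIs, -0.084 without thinning and -0.65 with all barcodes kept. That last value came from nearly the same cells in another random draw of UMIs. In mononuclear cells the 0 genes called became 14 without thinning, 2 without shared barcodes, 5 without a filter on low counts and 0 to 10 with 1 library left out, and 4000 UMIs left too few cells for a fit.

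For niacin against vehicle, the members lower in both niacin libraries went from 2 to 0 in neutrophils without shared barcodes and from 2 to 1 in classical monocytes with all barcodes kept. Without shared barcodes niacin replicate 1 held 4 classical monocytes, under the minimum of 10, so that count has no value there. The cause of these changes was not tested. Without the replicate block of the library, *Cybb* was -4.92 between microglia and mononuclear cells and -5.28 against neutrophils, and 0.79 (adjusted p = 0.106) between monocyte types. No paired analysis was possible between niacin and vehicle because the labels give those groups only 1 replicate number in common. Depth limits *Cybb* in microglia, which rests on 76 to 325 UMIs per library, *Ncf1* in nonclassical monocytes, on 14 to 45 UMIs, and *Cybb* in microglia divided by *Prkcd*, on 8 to 38 UMIs.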

Other observations

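The 361 cells that met no class held *Cybb* at 525, 307 and 378 CPM in the vehicle library and niacin replicates 1 and 2, between the levels of microglia and of mononuclear cells, and *Ncf1* at 124, 88.4 and 106 CPM. Their median was 1270 UMIs. B cells, which are known to carry the oxidase, held *Cybb* at 299, 160 and 143 CPM (201 ± 85.6, n = 3) and *Ncf1* at 184, 59.9 and 78.1 CPM. *Cybb* and *Cyba* were detected together in 22.1% of 77 thinned B cells (exact interval 13.4% to 33.0%) and in 0 of 50 thinned natural killer cells (exact interval up to 7.11%). *Rac1* in choroid plexus was 289 CPM in the vehicle library and 109 and 130 CPM under niacin.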
